A study of Carassius auratus with 4 samples.

Results

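The oxidative phosphorylation subunits of goldfish mitochondria were represented on the arrays by 80 probes of 8100, which carried 46 different gene labels. A probe here is 1 cDNA clone printed in 2 spots. The members were chosen by the gene names printed on the array. A name counted when it held NADH dehydrogenase, NADH-ubiquinone, succinate dehydrogenase, ubiquinol-cytochrome, cytochrome b, cytochrome c, ATP synthase or ADP/ATP translocase. The 14 vacuolar names and 2 names that hold the letters cytochrome b5 were left out. Those 2 include cytochrome b560 of succinate dehydrogenase (27g10), a complex II subunit. By those names 14 probes belonged to complex I, 4 to complex II, 12 to complex III, 25 to complex IV and 21 to complex V. Another 2 were for the ADP/ATP translocase and 2 for proteins that only help to build the chain. The mitochondrial genome encoded 3 of the 80, all in complex IV, and the nuclear genome 77. All 80 had a value on all 4 arrays, so none was lost to a filter.

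The tested cells were dispersed pituitary cells of Carassius auratus given 10 nM of goldfish secretoneurin (SN) for 12 h in static incubation. The control cells were dispersed pituitary cells labelled as without incubation, so the control differs from the SN cells by whatever that wording covers as well as by the peptide. Both came from pituitaries of male and female fish, and no genotype, strain or age is given in the sources used here. Each of the 4 arrays carried RNA of SN cells and RNA of control cells in different dyes, with SN in Cy5 on replicates 1 and 3 and in Cy3 on replicates 2 and 4. The labels do not say whether the 4 pairs came from separate cultures, and p-values may therefore reflect technical spread alone.

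Oxidative phosphorylation makes most of the ATP of a resting animal cell. Complexes I and II pass electrons from NADH and succinate to ubiquinone, complex III hands them on to cytochrome c, and complex IV passes them to oxygen. Complexes I, III and IV pump protons out of the matrix, and complex V, the ATP synthase, makes ATP as the protons return. Animal mitochondrial DNA encodes the catalytic core of complex IV and a few subunits of complexes I, III and V. All other subunits come from nuclear genes and are imported. In endocrine cells ATP from this chain supplies peptide synthesis, vesicle loading and exocytosis. Secretoneurin is a peptide cut from secretogranin II that stimulates luteinizing hormone release in goldfish.

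Values are log2 ratios of SN over control after background correction and loess normalization, 1 per probe and array, so that 0 means equal signal in both groups and a negative value means less signal in SN cells. Means over arrays carry the SE of a limma fit with an SN effect and a dye effect for each probe. A channel counted as above background when its signal exceeded the local background by 2 of its SDs. By that measure 13 members were above background in both SN and control cells on all 4 arrays, and 57 on at least 1 array in each group. In SN cells 8 members, and in control cells 21, stayed short of that limit on every array, 6 of them in both. The ratios of these 23 members are printed as measured and are not read as folds. Where 1 group alone stayed short, in 17 members, the fold was given only as a rough bound. It set the mean of the group with any array above background against the other group. For that other group its own signal or the faintest signal above background was taken, whichever was higher on each array. The first group's mean can also hold arrays short of the limit and was not always the higher one. The value is therefore not a strict lower bound. That bound exceeded 1 in 2 of the 17 and is given with them. It carries no error and is not a test. The Cy3 channel was the less often above background, in 15.1% to 18.6% of all probes per array, and that limits which members can be read. In RNA of mixed pituitary cells, fewer cells of a type and less RNA per cell cannot be told apart.

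Replicates 2 and 4 opposed each other and are described before the results because all means rest on both. Both have SN in Cy3 by their labels and by the image headers. Over the 7953 probes with 4 values their ratios had a correlation of -0.61, and over the 80 members one of -0.69. Replicates 1 and 3, with SN in Cy5, had one of 0.25 over all probes and 0.32 over the members. With replicates 1 and 3, replicate 2 had correlations of -0.006 and 0.11 over all probes and -0.063 and 0.39 over the members. Replicate 4 had -0.11 and -0.26 over all probes and -0.13 and -0.46 over the members. Direction is therefore not settled on replicates 2 and 4. Main values, with their signs, counts and p-values, keep the labelled direction and hold only as far as it does. The main counts, the dye effects and the probes with the smallest p are also given with the sign turned on 1 of the 2 arrays, fits in which the array alone in its dye weighs as much as the other 3 together. The sessions in which the images were quantified split the arrays the same way as the dyes, 1 and 3 against 2 and 4, so these cannot be told apart.

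The labelled cell type was checked by gene names. The 4 probes of pituitary hormones were for growth hormone, carp somatotropin, the gonadotropin GTH-II and the thyrotropin beta subunit, and 3 of them were above background in both groups on all arrays. Their median ratios were 0.16, -0.22, 0.32 and -0.38 on replicates 1 to 4. The muscle terms found 114 probes, of which 8 were named for non-muscle or unconventional myosins or a ubiquitin ligase. Of the other 106, 10 were above background in that sense, and of 18 globin and 60 neural and glial probes 0 each. Median ratios of SN over control on replicates 1 to 4 were -0.043, 0.035, 0.018 and -0.046 for those 106, 0.098, 0.073, -0.019 and 0.056 for globins and 0.045, 0.00094, 0.017 and 0.0065 for neural and glial names.

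No member passed the test for an SN effect at an adjusted p of 0.05 (limma with Benjamini-Hochberg adjustment over 8089 probes), where the background was 0% of all probes. The median log2 ratio of the 80 members was -0.015, against 0.0014 over all probes. The members' means ran from -0.44 to 0.37, with 33 above 0 and 47 below, and both ends belong to probes short of background in SN cells on every array. At an unadjusted p under 0.05, 3 members were higher in SN cells and 2 lower, which is 3.75% and 2.5% of 80. The background of that rule was 1.2% higher and 1.56% lower over all probes. With the sign turned on replicate 2, 0 members were higher (background 2.89%) and 10 lower, which is 12.5% (background 5.27%). With it turned on replicate 4, 14 were higher, which is 17.5% (background 7.1%), and 2 lower (background 3.15%). None of the 5 members with an unadjusted p under 0.05 in the labelled direction had one in either of these fits, where their p lay between 0.077 and 0.54. Clone names from 12 to 40, described below, belong to 56 of the 80 members but to 3443 of 7953 probes. The backgrounds given here are over all clone names, so the members' shares cannot be told apart from those of their clone series. A ratio above 0 on all 4 arrays was seen in 2 members (background 5.17%). One below 0 on all 4 was seen in 4 members (background 5.55%). Half-widths of the 95% intervals of the members had a median of 0.22 and reached 1.97 in the widest. A change smaller than its width could not be told from 0 with 4 arrays.

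The median of the members was -0.012, 0.033, 0.014 and -0.037 on replicates 1 to 4, so it lay on both sides of 0. Mean effects had a median of 0.0030 in complex I, -0.060 in complex II, -0.017 in complex III, -0.013 in complex IV and -0.017 in complex V. With the sign turned on replicate 2 the members' median was -0.023, and with it turned on replicate 4 it was 0.0032. In those fits 0 members passed, where the background was 0% and 0.0124% of all probes.

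**Figure D1:**
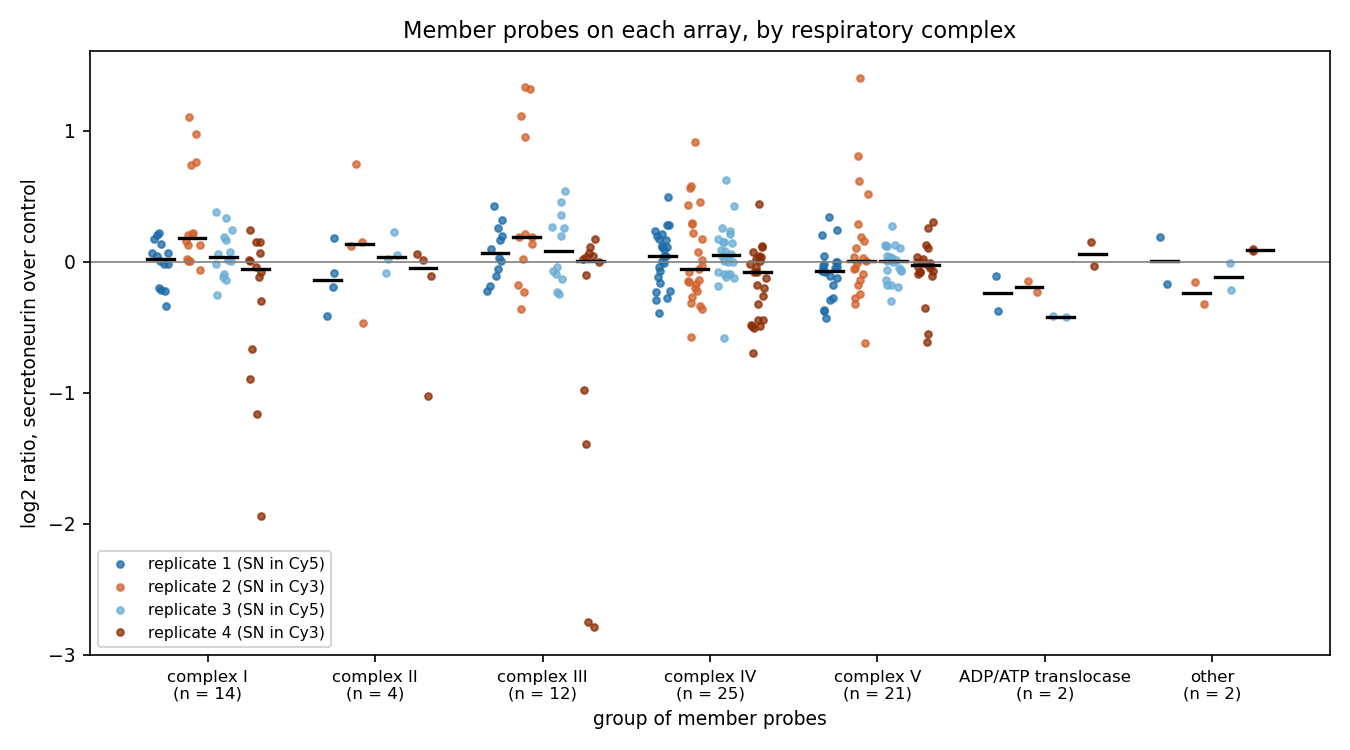
Log2 ratio of SN over control (vertical axis) of every member probe, grouped by respiratory complex (horizontal axis), with 1 column per replicate and black bars at the medians. The medians lie close to 0 in complexes I to V, while a few probes stand well above 0 on replicate 2 and well below 0 on replicate 4. Those of complex IV lie just outside the limits used for the opposed members below.

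The mitochondrial genome was represented by the 3 largest subunits of cytochrome c oxidase, which hold its metal centres and proton path. All 3 were above background in both groups on all 4 arrays. CoxI (42f19), the catalytic subunit that binds oxygen, had log2 ratios of 0.28, -0.17, 0.047 and -0.44 on replicates 1 to 4. It was above 0 on both arrays with SN in Cy5 and below 0 on both with SN in Cy3. The probe of coxII (42j18), the subunit that takes electrons from cytochrome c, had 0.17, -0.22, 0.14 and 0.12. It was below 0 on replicate 2 alone. The value of CoxI on replicate 2 and that of coxII on replicate 4 came from 1 spot, since the other was marked to be ignored. Subunit III (43p05), a core subunit without metal centres, had 0.21, -0.20, 0.050 and -0.32, with the same split by dye as CoxI. SN effects were -0.071 ± 0.081, 0.051 ± 0.079 and -0.064 ± 0.063 for CoxI, coxII and subunit III (SE, 4 arrays), and all 3 had intervals that include 0.

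Raw signals show how bright these spots were. Subunit III read 7716, 8240, 5078 and 8554 scanner units in SN cells, against 12264, 7113, 8069 and 6047 in control cells, on replicates 1 to 4. Cy3 ran brighter than Cy5 on every array before normalization, so the raw values of a pair are not comparable as they stand. The normalized ratios above carry the comparison.

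The 3 mitochondrially encoded members together averaged 0.22, -0.20, 0.079 and -0.22 on replicates 1 to 4, and the 77 nuclear-encoded members -0.022, 0.17, 0.028 and -0.23. The difference, mitochondrial minus nuclear, was 0.24, -0.36, 0.051 and 0.010, with a mean of -0.014 ± 0.25 (SD, 4 arrays) over the arrays. Its mean is much smaller than its spread, and its sign differs between arrays. Against the 22 nuclear-encoded members of complex IV alone, which are built into the same enzyme, the mean difference was -0.022 ± 0.20 (SD, 4 arrays). Without replicate 2 the difference from all nuclear members was 0.079 and without replicate 4 it was -0.11, with both dye orientations weighted equally. With the sign turned on replicate 2 or on replicate 4, the plain mean over the 4 arrays was 0.17 or -0.020. These plain means are not weighted as the fits with a sign turned are. With replicate 2 turned, the difference lay above 0 on all 4 arrays, which was not tested. In the labelled direction no difference between mitochondrial and nuclear subunits was detectable beyond the spread between arrays.

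The split by dye was tested as a dye effect in the same fit, positive where Cy5 gave the higher signal. It was 0.24 for CoxI (unadjusted p = 0.042), 0.10 for coxII (0.26) and 0.20 for subunit III (0.033), in limma. With the sign turned on replicate 2 these were 0.31 (unadjusted p = 0.012), 0.029 (0.70) and 0.24 (0.025), and with it turned on replicate 4 they were 0.21 (0.081), 0.14 (0.16) and 0.20 (0.061). They stayed above 0 under both turns, and no p was under 0.05 with replicate 4 turned. Among all 80 members, 3 had a dye effect above 0 at an unadjusted p under 0.05 (background 3.34%) and 2 one below 0 (background 3.31%). No probe passed after adjustment (background 0%). The other mitochondrially encoded transcript on the array was the 16S ribosomal RNA (42n12), which lies upstream of the 3 oxidase genes in RefSeq's goldfish annotation. It had ratios of 0.34, -0.28, 0.44 and -0.25 on replicates 1 to 4 and a dye effect of 0.33 (unadjusted p = 0.0034). It too followed the dye on all 4 arrays, and its dye effect was 0.30 with the sign turned on replicate 2 and 0.31 with it turned on replicate 4.

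All 3 mitochondrially encoded members have clone names that begin with 42 or 43, and so do 2 nuclear members. The first of these, named ATP-synt_C (43g23) after a protein family shared by the mitochondrial c subunit and the vacuolar proton pump, had 0.34, -0.62, 0.28 and -0.070 on replicates 1 to 4. The second, named oxidase subunit Vlb (43p18, as spelled on the array), had 0.24, -0.57, 0.056 and 0.0090. All 5 had a dye effect above 0. The mean difference between the 3 mitochondrial and these 2 nuclear members was 0.014 ± 0.26 (SD, 4 arrays). Probe 43g23 was above background on 2 arrays in SN cells and on 1 in control cells, and 43p18 on 0 and 1. The 3 mitochondrial members were above it on all 4 in both groups, so this comparison sets bright probes against faint ones. Among the bright probes, those above background in both groups on all arrays, 35 had such clone names, with a median dye effect of 0.060 and 23 of them above 0. The 351 bright probes with clone names from 12 to 40 had one of -0.052, with 125 above 0. The 4 hormone probes, 3 of them bright, had one of 0.27, with 4 of 4 above 0. Of these, 42c08, 42g17 and 43k06 also have clone names beginning 42 or 43, so the 2 comparisons overlap. Probe 42f06, named only for cytochrome-c oxidase activity, was left out of the members by the wording. It had -0.080, -0.42, 0.031 and -0.056 on replicates 1 to 4 and a dye effect of 0.11, and its name does not tell the genome. The genome that encodes a member and the clone series cannot be told apart beyond the nuclear probes 43g23 and 43p18.

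**Figure D2:**
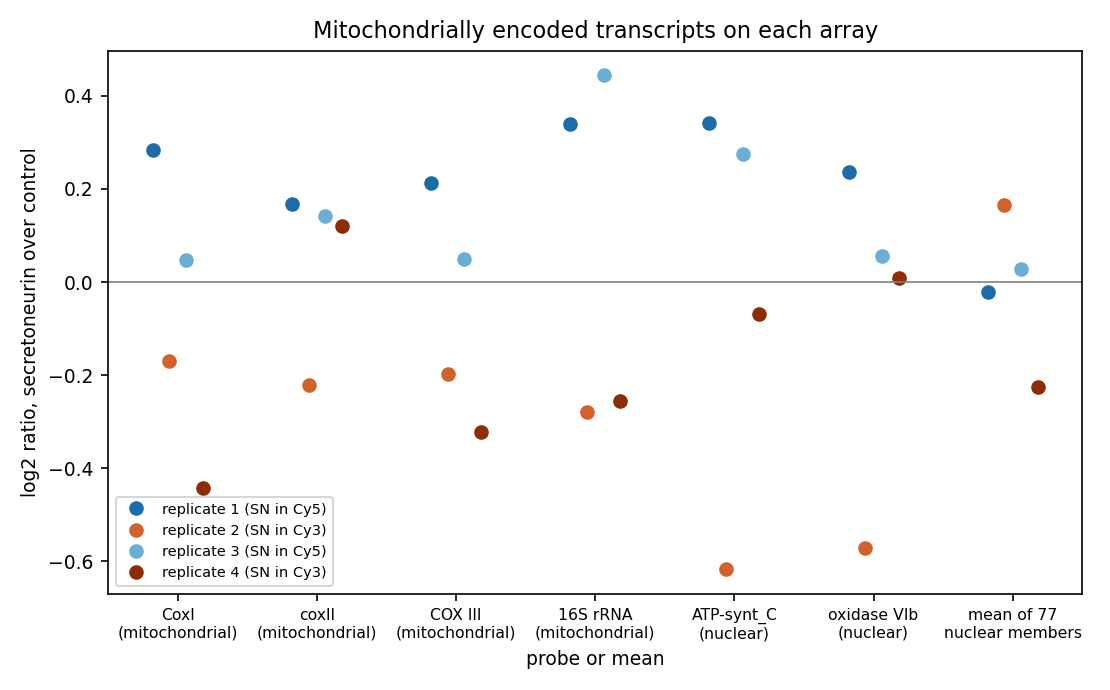
Log2 ratio of SN over control (vertical axis) on each replicate for the 3 mitochondrially encoded members, mitochondrial 16S rRNA, the 2 nuclear members of the same clone series and the mean of the 77 nuclear members (horizontal axis). CoxI, subunit III and 16S rRNA lie above 0 on replicates 1 and 3 and below 0 on replicates 2 and 4. The 2 nuclear members of the series were faint, and 43p18 was short of background in SN cells on every array.

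Complex I, the NADH dehydrogenase, was represented by 14 probes of 10 genes, of which 8 means lay above 0 and 6 below. The probe of the 49 kDa subunit (19k18), part of the ubiquinone-reducing module, had ratios of 0.21, 0.024, 0.34 and 0.15 on replicates 1 to 4. All 4 were above 0, with an SN effect of 0.18 ± 0.060 (SE) and an unadjusted p of 0.039 (adjusted p = 0.998, limma). The effect was 0.16 with the sign turned on replicate 2 (unadjusted p = 0.15) and 0.078 with it turned on replicate 4 (0.52). Its signal was above background on 2 arrays in SN cells and on 1 in control cells. The 24 kDa subunit, an iron-sulfur protein of the NADH-binding end, had 3 probes with effects of 0.095 ± 0.25 (15c18), 0.057 ± 0.095 (15g02) and -0.076 ± 0.066 (19d06). These differ in sign and each interval includes 0. Probe 19d06, the only one below 0, was short of background in control cells on every array.

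The MLRQ subunit, a small protein that in mammals is now assigned to complex IV, also had 3 probes. Probe 12n09 had 0.0038, 1.11, 0.060 and -1.16 on replicates 1 to 4, high on replicate 2 and low on replicate 4. Probe 40b09 had -0.22, 0.21, -0.017 and -0.12 and probe 52c11 had 0.046, 0.22, -0.14 and 0.25, neither with such a swing. Neither group had signal well above background on 52c11. Of the remaining complex I probes, the B12 subunit (39k09), an accessory subunit of the membrane arm that was bright on all arrays, had 0.22, 0.21, 0.0060 and -0.076, and the 75 kDa subunit (28d20), the largest iron-sulfur subunit, had -0.34, 0.98, 0.17 and -0.90. B12 stayed within 0.22 of 0 throughout, while the 75 kDa subunit swung as 12n09 did. The B15, B17.2, AGGG and 23 kDa probes had effects between -0.031 and 0.016.

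Complex II, succinate dehydrogenase, is the only respiratory complex that is also an enzyme of the citric acid cycle and has no mitochondrially encoded subunit. Its flavoprotein, which oxidizes succinate, had 2 probes. Probe 53l08 had 0.18, 0.15, -0.085 and 0.062 and probe 61c19 -0.42, -0.47, 0.23 and 0.013 on replicates 1 to 4, and the effects were 0.078 ± 0.071 and -0.16 ± 0.15. The cytochrome b small subunit, a membrane anchor, had -0.087, 0.12, 0.020 and -0.11 on probe 24n12 and -0.19, 0.75, 0.053 and -1.03 on probe 24m05. Only 24m05 was above background in control cells on any array, and it had the swing between replicates 2 and 4. The other membrane anchor, cytochrome b560 (27g10), left out of the members by the wording, had an effect of -0.040 ± 0.070.

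Complex III, the ubiquinol-cytochrome c reductase, was represented by 12 probes of 6 genes. Cytochrome c1, which passes electrons to cytochrome c, had 0.43, 0.19, 0.19 and 0.040 on probe 16p18, all above 0 (unadjusted p = 0.037, adjusted p = 0.998, limma). The bound of 16p18, which has no error, was 1.15-fold higher in SN cells. Its second probe (23i22) had -0.11, 0.19, -0.23 and -0.10, with an effect of -0.065 ± 0.075. Probe 16n05 of core protein 2, a structural subunit on the matrix side, had 0.32, 0.13, 0.27 and -0.0015 (unadjusted p = 0.033), and had no bound above 1. Its second probe (55f09) had 0.028, 0.024, -0.25 and 0.041 and an effect of -0.039 ± 0.070. So in both genes the probe with the small p was matched by a second probe on the other side of 0. Probes 16p18 and 16n05 were above background on 1 array in SN cells and on none in control cells. Their p were 0.52 and 0.54 with the sign turned on replicate 2, and 0.13 for both with it turned on replicate 4. Core protein I (26b12), the partner of core protein 2, had -0.22, -0.36, -0.13 and 0.021.

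Complex IV has 22 nuclear-encoded probes of 11 genes here, the small subunits that surround the mitochondrially encoded core, with 11 means above 0 and 11 below. The VIc polypeptide, a small membrane subunit, had 3 probes. Probe 59k12 had -0.12, -0.36, -0.58 and -0.70 on replicates 1 to 4, all below 0 (unadjusted p = 0.016, adjusted p = 0.998, limma). Its bound, which has no error, was 1.11-fold lower in SN cells. On replicates 2, 3 and 4 its ratio came from 1 spot, since the other was marked to be ignored. SN signal was well above background on 0 arrays and control signal on 1. The other VIc probes, named after the carp sequence, had -0.043, 0.46, 0.43 and -0.49 (39d20) and -0.28, 0.56, -0.0038 and -0.26 (39o07), with effects of 0.090 ± 0.19 and 0.0044 ± 0.16. Of these 39o07 was above background in both groups on all 4 arrays. The low value of 59k12 was not shared by its better measured sister probe. Without replicate 2 probe 59k12 passed the test (-0.52, adjusted p = 0.045, limma), and without replicate 4 it did not (-0.35). With the sign turned on replicate 2 it was -0.41 (unadjusted p = 0.077) and with it turned on replicate 4 it was -0.18 (0.50).

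The 3 VIb probes had effects of -0.065 ± 0.077 (53a22), -0.11 ± 0.065 (61e19) and -0.013 ± 0.075 (61g08). None was above background in control cells on any array, and in SN cells only 61g08 was, on 1 array. VIIb (28j18) had -0.071, 0.18, -0.12 and 0.44 and an effect of 0.11 ± 0.069. VIIc, bright on both of its probes, had 0.11, 0.29, 0.15 and -0.48 (40a23) and -0.22, 0.30, 0.087 and -0.51 (39k18), again positive on replicate 2 and negative on replicate 4. The 4 VIIa probes, a subunit with tissue-specific forms, had effects between 0.0031 and 0.17, all above 0, and none with an unadjusted p under 0.05. The 3 Vb probes, for a zinc-binding subunit, lay between -0.047 and -0.015.

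Complex V, the ATP synthase, was represented by 21 probes of 11 genes, of which 7 means lay above 0 and 14 below. Subunit c, which forms the rotating ring in the membrane, had 7 probes with effects between -0.17 and 0.10. The lowest of them (59f19) had -0.28, -0.32, 0.010 and -0.079 on replicates 1 to 4, and the highest (60h14) had 0.20, 0.19, 0.045 and -0.015. Probe 60h14 was short of background in control cells on every array. Of the 2 bright ones, 40e09 had -0.077, 0.035, -0.30 and 0.31 and 14n12 had -0.019, 0.62, 0.040 and -0.61. Signs were mixed within the gene, and the mean over the 7 probes was -0.029, with an SD over arrays of 0.066. Vertebrates carry several nuclear genes for this protein, so its probes may not all report 1 transcript.

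The alpha chain, which with the beta chain forms the catalytic head, had -0.0042, -0.14, -0.059 and -0.026 on probe 58i17, all below 0 but by small amounts. Its probe 60g09 had -0.037, 1.40, 0.0023 and 0.13. The high value on replicate 2 came from spots that differed by 3.99 on the log2 scale, and no array gave it a channel well above background. Its mean ratio was 0.054 without replicate 2, and without replicate 4 the probe passed the test (0.69). With the sign turned it was -0.18 for replicate 2 and 0.67 for replicate 4. The O subunit, which joins head and stalk, had -0.43, -0.048, -0.19 and 0.26 (39a20) and -0.068, 0.0079, -0.18 and -0.080 (39d09), with effects of -0.10 ± 0.084 and -0.079 ± 0.057. The 2 beta chain probes, the 2 of the gamma chain, which is the rotor shaft, and the single probes of coupling factor 6 and the delta, d, f and g chains had effects between -0.094 and 0.053.

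ADP/ATP translocase 1, the carrier that exchanges the ATP made by complex V for cytosolic ADP, had 2 probes on the same side of 0. Probe 28p07 had -0.37, -0.15, -0.42 and -0.035 on replicates 1 to 4, all below 0, with an effect of -0.24 ± 0.055 (unadjusted p = 0.011, adjusted p = 0.998, limma). Probe 26i08, which was above background in both groups on all arrays, had -0.11, -0.23, -0.42 and 0.15, below 0 on 3 arrays, with an effect of -0.15 ± 0.10 and an interval that includes 0. The mean of both was -0.20 with an SD over arrays of 0.20. On replicate 1 the 2 spots of 28p07 differed by 1.03. Without replicate 2 the mean of both probes was -0.14 and without replicate 4 it was -0.26. With the sign turned on replicate 2 it was -0.050, and with it turned on replicate 4 it was -0.21.

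The 2 members that are not subunits had -0.17, -0.15, -0.21 and 0.097 for cytochrome c-type heme lyase (22f21), which attaches heme to cytochrome c, and 0.19, -0.32, -0.011 and 0.086 for the assembly protein COX15 (24i08), which makes the heme of complex IV. Effects were -0.11 ± 0.068 and -0.013 ± 0.094. No probe was named for cytochrome c itself, nor for the mitochondrially encoded subunits of complexes I, III and V.

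**Figure D3:**
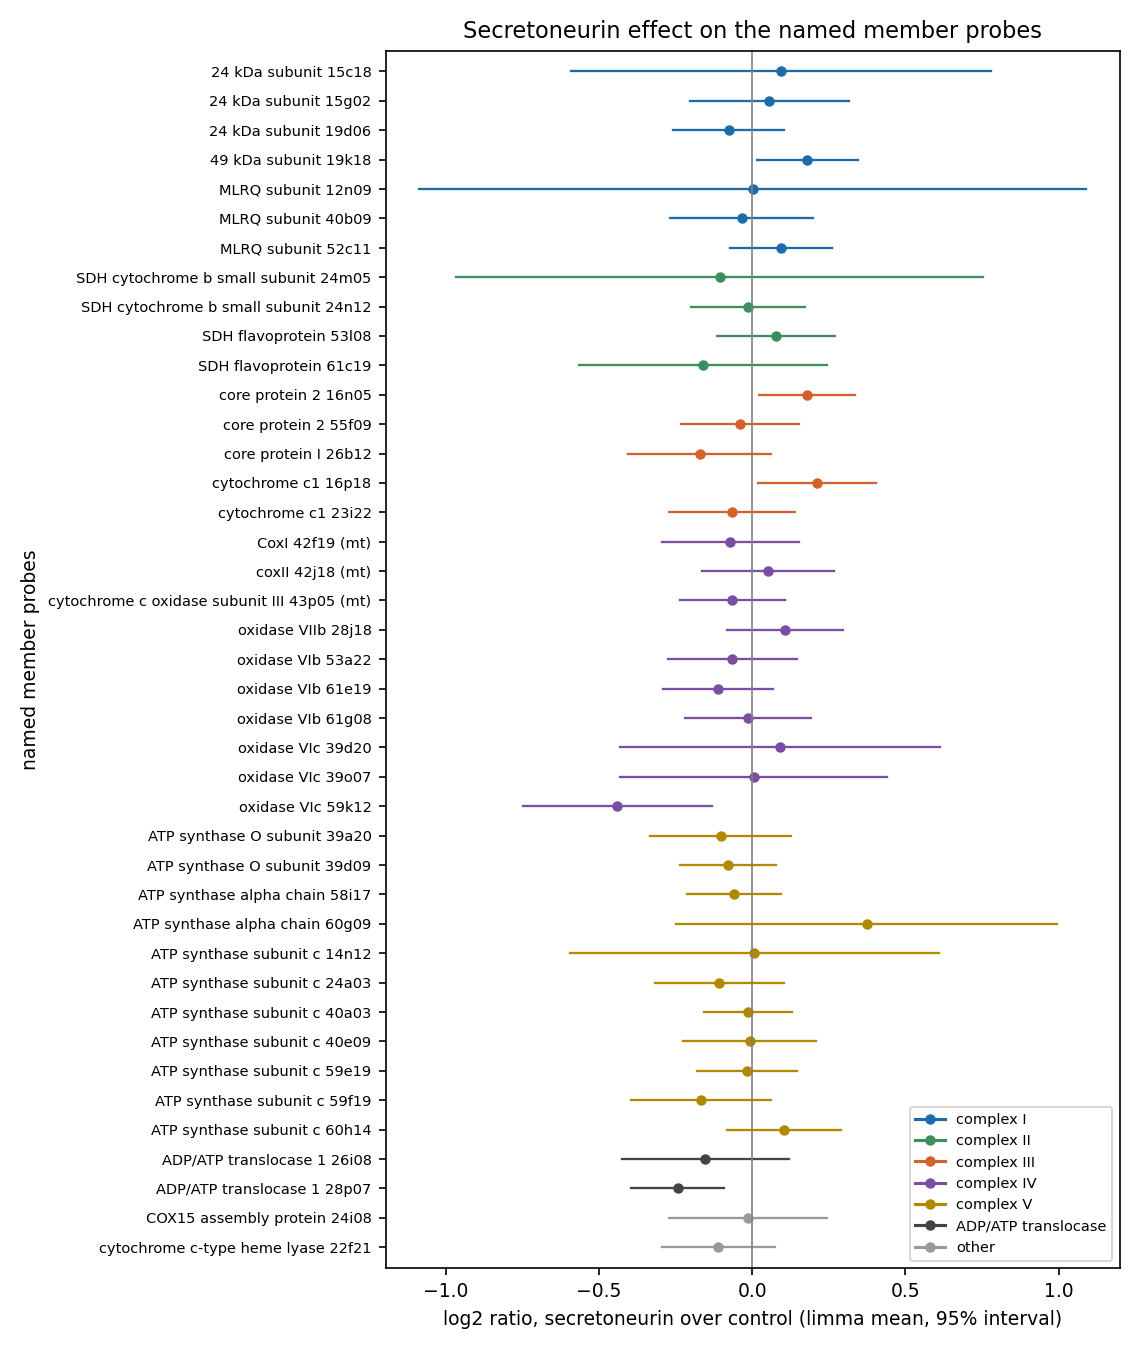
SN effect as mean log2 ratio of SN over control with its 95% interval (horizontal axis) for 41 named member probes, coloured by complex, with mt marking mitochondrially encoded subunits. Intervals that leave out 0 belong to single probes of the 49 kDa subunit, core protein 2, cytochrome c1, oxidase VIc and ADP/ATP translocase 1, and none of these passes adjustment over all probes. Of these single probes, those of core protein 2 (16n05), cytochrome c1 (16p18) and oxidase VIc (59k12) were short of background in 1 group on every array.

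Several genes had more than 1 probe, which shows how far probes of a gene agree. Of the 20 such genes, 11 had probes on both sides of 0, 8 had all probes below 0 and 1, oxidase VIIa, had all above 0. With the sign turned on replicate 2 these counts were 12, 7 and 1, and with it turned on replicate 4 they were 12, 3 and 5. In the labelled direction those below 0 throughout were the 14 kDa protein, ADP/ATP translocase 1, the ATP synthase O, beta and gamma chains, oxidase VIb and Vb, and the succinate dehydrogenase membrane anchor. Some of these probes were short of background in at least 1 group on every array, among them all 3 VIb probes. Probes of a gene share its transcript but can also match related genes, and they are not replicates of the condition.

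Wide swings were seen in 11 nuclear-encoded members whose ratio was above 0.5 on replicate 2 and below -0.5 on replicate 4. These limits were set after the values were seen, so the group is a description with no test. It held 4 probes of complex I, 1 of complex II, 4 of complex III, 0 of complex IV and 2 of complex V. The 0 depends on the limits, since complex IV probes lay just outside them. The 7.2 kDa protein of complex III, a small membrane subunit, had the widest. Its probe 40p15 had 0.26, 1.34, 0.26 and -2.75 on replicates 1 to 4, probe 40m01 had 0.17, 1.32, 0.54 and -2.79 and probe 40n01 had 0.0089, 1.11, 0.36 and -0.98. Replicates 1 and 3 stayed between 0 and 0.54 in all 3. The remaining probe of the name (60a03), not well above background in either group, had -0.19, 0.21, -0.067 and 0.11.

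The swing was visible in the raw signals. Probe 40p15 read 2529, 9154, 2773 and 1489 scanner units in SN cells, against 4387, 2536, 4000 and 4824 in control cells, on replicates 1 to 4. SN signal was the higher on replicate 2 and the lower on replicate 4, although both arrays carried SN in Cy3. The B17 subunit of complex I (40p17) had 0.13, 0.76, 0.38 and -1.94, the 14 kDa protein of complex III (39d21) -0.057, 0.95, 0.46 and -1.39 and ATP synthase subunit d (36i06), part of the stalk, -0.18, 0.81, -0.073 and -0.55. Just outside the limits lay 21d15 (VIIa-related protein), with 0.92 on replicate 2 and -0.49 on replicate 4, and 39d18 (oxidase VIa), with 0.58 and -0.44.

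**Figure D4:**
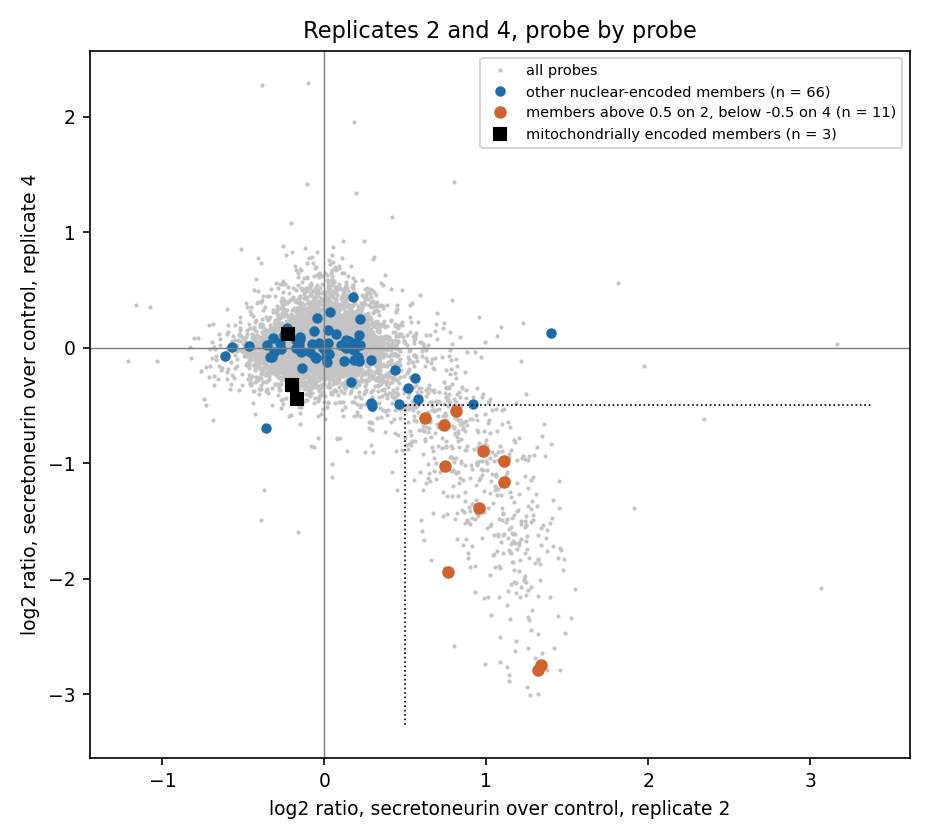
Log2 ratio of SN over control on replicate 2 (horizontal axis) against replicate 4 (vertical axis) for all probes (grey), the mitochondrially encoded members (squares) and the nuclear-encoded members, with dotted lines at 0.5 and -0.5. The 11 members at the lower right lie inside a tail of 430 probes within the dotted lines, of which 386 have clone names from 12 to 40. The 3 mitochondrially encoded members lie outside it, and so do all 763 probes with clone names beginning 42 or 43.

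The 11 are 13.8% of the members, against 5.41% of all probes with 4 values. All 11 were above background on at least 2 arrays in both groups, and of the 39 members measured that well they are 28.2%, against 17.8% of all such probes. All 11 also had clone names from 12 to 40. Of the 35 members with such names and signals they are 31.4%, against 30.7% of 1218 probes. Of 807 such probes with clone names from 51 to 61, 4.96% met the limits. Over all probes of a series, whatever their signal, 11.2% of those from 12 to 40 and 1.29% of those from 51 to 61 did. None of 763 probes with clone names beginning 42 or 43, which include the mitochondrial members, met them. Read against these shares, the members' count is near the background of their clone series. No source used here says what the clone numbers mean.

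The SN effects of these 11 members had a median SE of 0.37, against 0.075 for the other 69. That gap follows from the limits, which picked members whose values disagree between replicates 2 and 4. Leaving out replicate 2 or replicate 4 brought calls among the members. The same limits favour such calls among the 11, so their share is no separate result. Without replicate 2, 7 members, 6 of them among the 11, passed as lower in SN cells (limma, adjusted p from 0.00069 to 0.045) and 0 as higher, where the background was 3.88% lower and 0.465% higher. Without replicate 4, 10, of which 7 are among the 11, passed as higher (adjusted p from 0.0066 to 0.041) and 0 as lower, where the background was 5.23% higher and 0.225% lower. In each of these fits a single array stood for SN in Cy3 and was assumed to vary like the others. Their backgrounds are over all clone series. Of the 11, 3 passed in neither fit. In all, 5 probes passed in both fits with opposite signs: the MLRQ probe 12n09, the 14 kDa probe 39d21, the B17 probe 40p17 and the 7.2 kDa probes 40m01 and 40p15. Probe 40p15, for example, had -1.24 without replicate 2 and 0.80 without replicate 4.

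Other genes of mitochondrial metabolism were looked at from a list of names. It held 24 probes of citric acid cycle enzymes and pyruvate dehydrogenase, of which 5 are named as cytosolic forms. For the other 19 the median SN effect was -0.0087, with 8 above 0 and 11 below, and 1 on each side had an unadjusted p under 0.05. For 99 other mitochondrial names, including carriers, import proteins and mitochondrial ribosomal proteins, the median was 0.0080, with 54 above 0 and 45 below. At an unadjusted p under 0.05 in limma, 1 of these was higher in SN cells (background 1.2%) and 2 lower (background 1.56%). The limits for replicates 2 and 4 were met by 9 of the 99 (background 5.41%) and by 0 of the 24. All 9 had clone names from 12 to 40, where the background was 11.2%, so their share cannot be told apart from that of the clone series. No probe of either list passed adjustment over all probes.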

How the data were processed

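RNA of SN and control cells was hybridised on 4 two-colour cDNA arrays with 16200 gene spots each. The deposited scanner files hold linear intensity and local background per spot and channel, per the file headers. Log2 ratios of unstated normalization come from the authors' deposited value table, an alternative source. The deposited ignore marks and background SDs were read as other values per the file headers, and marked spots and 1128 control spots were left out.

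Background was corrected by normexp (offset 50) and ratios were normalized by whole-array loess (span 0.3 and 4 iterations; limma 3.58.1 with R 4.3.3). Spots of a clone were averaged. Bounds of folds used the channels after Aquantile normalization between arrays and may carry dye bias. The fit (lmFit and eBayes, two-sided) held an SN and a dye effect, leaving 2 residual degrees of freedom, and p-values of 8089 probes with at least 3 arrays were adjusted by the Benjamini-Hochberg method. The number of arrays limits the precision. On simulated data with independent noise of equal size and every array in its labelled direction, the fit returned known effects. The opposition of replicates 2 and 4 was not simulated, so this gives no assurance on it.

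Members, gene lists and the rule for named probes were chosen with earlier results of these data known. The rule took every mitochondrially encoded, complex II and translocase probe, and in each nuclear group up to 3 genes with the smallest unadjusted p, with all their probes. Other probes were picked after their values were seen. Alternatives were other normalizations, the authors' table, bright probes only, no dye effect, each array left out, and the sign turned on replicate 2 or 4, which was added after seeing the data.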

Additional observations from a re-analysis of the deposited data

Results flagged for a closer look

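Of 50 sets of 4 array values tested for a value far from the others, 4 had one, where chance gives about 5%. Probe 60g09 of the ATP synthase alpha chain had 1.40 on replicate 2, where its spots disagreed, and between -0.037 and 0.13 on the others. The coxII probe (42j18) had -0.22 on replicate 2 and between 0.12 and 0.17 on the others. Probe 15g02 of the 24 kDa subunit of complex I had -0.30 on replicate 4 and between 0.16 and 0.19 on the others. Probe 55f09 of core protein 2 had -0.25 on replicate 3 and between 0.024 and 0.041 on the others.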

How the results depend on the processing

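The count of 0 probes called for SN was 0 in 9 of the 12 alternatives and depended on replicates 2 and 4: with each array left out in turn it ranged from 0 to 437, and with the sign turned on replicate 4 it was 1. The count of 0 for the dye effect ranged from 0 to 434 with an array left out and was 1 with that sign turned. Among the members the calls for SN ranged from 0 to 10, the non-zero counts coming without replicate 2 (7) and without replicate 4 (10). Probe 12n09 of the MLRQ subunit ranged from -0.57 to 0.57 with an array left out, and both ends passed the test. At an unadjusted p under 0.05, limma found 223 probes for SN and 538 for dye. The mitochondrial minus nuclear difference stayed in all alternatives within the SD over arrays of the labelled direction, 0.25. Turning a sign changes the spread itself, so that SD is no measure for the turned settings. With the sign turned on replicate 2 the difference was above 0 on every array. Of 64 alternative medians of complexes I to V 7 moved by more than the spread between arrays, 3 of them without replicate 4, where those of complexes I, II and III were 0.12, 0.073 and 0.13. For complex III only 1 probe was left among those above background on all arrays, with -0.22. Each ratio already pairs an SN sample with the control sample on its array, so no further block was fitted. The number of probes bright in both dyes, 13 of 80 members, limits what can be read from the rest.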

Other observations

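Duplicate spots of the members differed by about as much as those of other probes. The median gap between the log2 ratios of a member's spots was 0.23, 0.20, 0.22 and 0.16 on replicates 1 to 4, against 0.22, 0.20, 0.19 and 0.17 over all probes. For the 11 members opposed on replicates 2 and 4 it was 0.15, 0.23, 0.19 and 0.27. On replicates 2 and 4 the gap exceeded the ratio itself in 2 of the 11. On replicates 1 and 3, where their ratios were smaller, gaps above the ratio also occurred. Probe 12n09, for example, had a gap of 0.15 against a ratio of 0.0038 on replicate 1. The membrane anchor probe 24m05 had gaps of 1.18 and 1.14 on replicates 2 and 4, against ratios of 0.75 and -1.03, and the B17 probe 40p17 a gap of 0.83 on replicate 2, against a ratio of 0.76. Among these 11 the ratios of replicate 3 correlated with replicate 2 at 0.48 and with replicate 4 at -0.66, and for the other 69 members at 0.15 and -0.19. Those of replicate 1 did so at 0.44 and -0.71 among the 11, and at -0.14 and -0.065 for the other 69. The probes share arrays and depth, so these are descriptions. Outside the respiratory genes, 10 of 106 muscle probes and 2 of 60 neural and glial probes met the limits for replicates 2 and 4. Of 18 globin and 4 hormone probes 0 each did. The background was 5.41% of all probes with 4 values, 11.2% for clone names from 12 to 40 and 0% for 42 and 43. Hormone probes 42c08, 42g17 and 43k06 are in the last of these series. The lists differ in clone series, so the counts cannot be read as differences between cell types.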
